A study of Mus musculus with 4 samples.

Results

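Cytochrome P450 genes carry the prefix Cyp in the mouse, followed by a family number, a subfamily letter and a gene number. The 94 genes described here are the autosomal protein-coding genes of the GENCODE M21 annotation (mm10) whose symbols have exactly that form, of 20807 autosomal protein-coding genes in all. The series is a ChIP-seq map (sequencing of immunoprecipitated chromatin) of the protein CTCF in the gastrocnemius, a calf muscle. There are 4 libraries, 2 technical replicates from each of pool E and pool F, and each pool joins 2 gastrocnemius samples. All tissue was from adult female mice at 2 months of age, of B6CASTF1/J, a hybrid strain, and no group was treated or mutant. The files hold binding peaks and no expression values, so the labelled tissue could not be checked against marker genes.

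P450 enzymes hold a haem group and insert oxygen into small molecules. Families 1 to 3 are best known for oxidising drugs and other foreign compounds in the liver, family 4 for fatty acids, and the remaining families for cholesterol, bile acids, steroid hormones, vitamin D and retinoic acid. Many drug-metabolising genes stand in tandem arrays that arose by repeated duplication, while most of the genes with fixed tasks in hormone or sterol synthesis stand alone. CTCF recognises a directional DNA motif with its zinc fingers and holds the ends of many chromosome loops.

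A gene was called clustered where another of the 94 starts lay within 200 kb on the same chromosome, and single otherwise. There were 70 clustered genes in 14 clusters, of which 8 held 3 or more genes and 6 were pairs, and 24 single genes. A peak was placed by its summit, the base of the highest signal, and its strength is the authors' score for the peak, whose scale was not stated. The main list was the conservative list of 42163 peaks, which rests on both pools. Its strengths ran from 11.5 to 684.0 with a median of 245.6.

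The sequences under 9 of the summits near Cyp starts come first, because these sites differ in strength and in how closely they match the motif. Each was read from the RefSeq GRCm38 assembly (mm10), 5′ to 3′ on the strand of the motif. Capitals mark the 14 bases that best match the core CTCF consensus, and lower case marks 8 bases on either side. Of the sites shown, those of Cyp1b1 and Cyp46a1 had no mismatch to the consensus, those of Cyp2w1, Cyp17a1, Cyp21a1 and Cyp11a1 had 1, and those of Cyp26b1, Cyp27a1 and Cyp26a1 had 2.
Cyp26b1 intron, chr6:84590490-84590519, minus strand: aaaactaaCCACCAGGTGGGGTtccaaggc
Cyp2w1 intron, chr5:139355408-139355437, minus strand: gcccctggCCACAAGAGGGCACcaggccag
Cyp1b1 promoter, chr17:79715725-79715754, minus strand: acgcgtgtCCAGCAGGTGGCAGagttcctg
Cyp17a1 intron, chr19:46670854-46670883, plus strand: gctgatggCCACTTGATGGCAGcagccgct
Cyp46a1 intron, chr12:108338753-108338782, minus strand: ccctgtctCCAGCAGGGGGCACaagggaga
Cyp21a1 promoter, chr17:34805380-34805409, minus strand: ctctgcggCCAGAAGAGGGCAGtggaactg
Cyp27a1, upstream, chr1:74712150-74712179, plus strand: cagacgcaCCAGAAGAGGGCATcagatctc
Cyp11a1 intron, chr9:58009783-58009812, plus strand: ctcagagtCCAGAAGAGGGCGCtggatccc
Cyp26a1 promoter, chr19:37697870-37697899, plus strand: gggcggcgGCGGCAGGTGGCGCgggaggct

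Few clustered Cyp genes had a CTCF summit near their start, and the share was higher among single Cyp genes, whose interval included the share of all genes. A summit of the conservative list lay within 5 kb of the start of 5 of the 70 clustered genes (7.14%, 95% Wilson interval 3.09 to 15.7%) and of 11 of the 24 single genes (45.8%, 27.9 to 64.9%). Among all autosomal protein-coding genes the share was 38.2%. Together, 16 of the 94 Cyp genes had such a summit (17%, 10.8 to 25.9%). The intervals cover counting error only, and the genes of one cluster share a neighbourhood and are not independent, so no test was made between the classes.

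Each pool alone gave the same order. In the pool E list, 4 of 70 clustered and 13 of 24 single genes had a summit within 5 kb, beside 44.2% of all genes. In the pool F list the counts were 3 of 70 clustered and 9 of 24 single genes, beside 32.2% of all genes. In the combined list, which also rests on both pools, they were 5 of 70 and 11 of 24, beside 43.6% of all genes. The single genes counted in the conservative and combined lists were not all the same. Cyp26b1 had a summit in the conservative and pool F lists, and Cyp27b1 in the combined and pool E lists. The interval of the clustered genes lay below that of the single genes in each of the 4 lists.

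**Figure D1:**
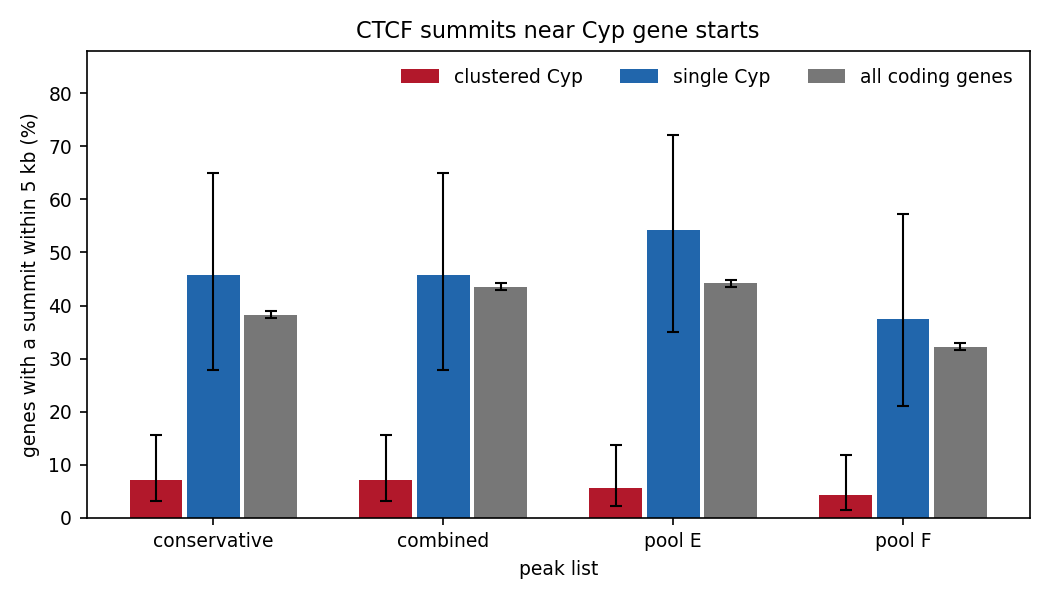
Share of genes with a CTCF summit within 5 kb of the start (%), for clustered Cyp genes, single Cyp genes and all autosomal protein-coding genes in each of the 4 peak lists. Error bars are 95% Wilson intervals; the clustered genes sit between 4.29 and 7.14% and the single genes between 37.5 and 54.2%.

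The order also held in other windows. Within 1 kb of the start, 2 of 70 clustered and 6 of 24 single genes had a summit, beside 21.1% of all genes. Within 20 kb, the counts were 24 of 70 clustered and 17 of 24 single genes, beside 67.1% of all genes. The median distance from start to nearest summit was 41.6 kb for clustered genes, 11 kb for single genes and 9.39 kb for all genes. More than 100 kb separated 24 of the 70 clustered genes from any summit, the farthest being Cyp2c67 at 576.6 kb. The farthest single gene was Cyp7b1, which hydroxylates oxysterols, at 84.7 kb.

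Promoter composition moved with the classes. The median ratio of observed to expected CpG around the start was 0.134 for clustered, 0.283 for single and 0.568 for all genes. Among CpG-poor promoters, 4 of 69 clustered and 7 of 17 single genes had a summit within 5 kb, beside 27.4% of all CpG-poor promoters. Among CpG-rich promoters, the only clustered gene, Cyp26a1, had one, as did 4 of 7 single genes, beside 51% of all CpG-rich promoters. The gap between the classes was thus present among the CpG-poor promoters, which hold nearly all clustered genes.

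**Figure D2:**
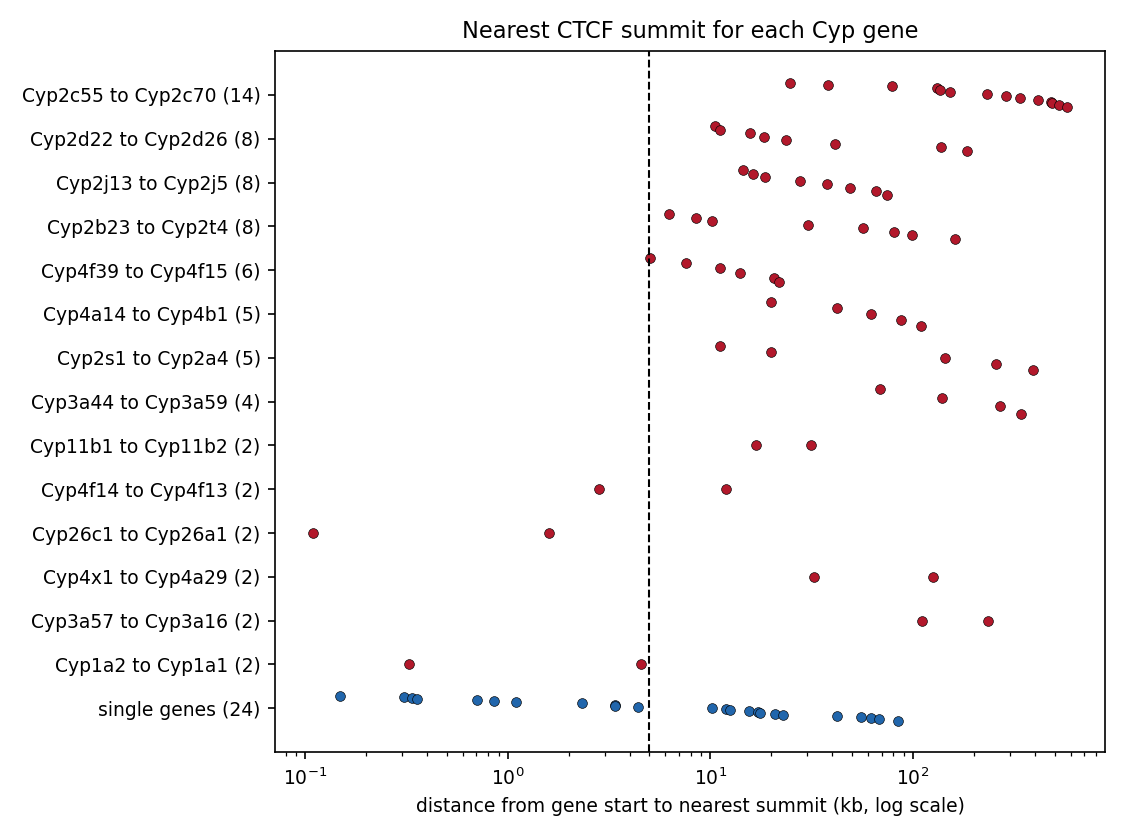
Distance from each Cyp start to the nearest CTCF summit of the conservative list (kb, log scale), one point per gene, with clustered genes in red by cluster (number of genes in brackets) and single genes in blue. The dashed line is at 5 kb; no gene of a cluster of 3 or more genes lies left of it, and the 14 genes of the Cyp2c cluster reach 576.6 kb.

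Within the clustered genes, the summits were all in pairs. Of the 58 genes in clusters of 3 or more, 0 had a summit within 5 kb, which allows a share of up to 5.17%. Of the 12 genes in pairs, 5 had one, beside 38.2% of all genes. The 5 were Cyp1a1 and Cyp1a2, Cyp26a1 and Cyp26c1, and Cyp4f13. Within 20 kb, in the clusters of 3 or more genes, 8 of the 16 outermost and 9 of the 42 inner genes had a summit. Both shares were below the 67.1% of all genes, but only the 95% Wilson interval of the inner genes lay wholly below it. The interval of the outermost genes included 67.1%, so their share was not set apart from that of all genes.

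With any annotated transcript start in place of the gene start, the clustered share was more than doubled. A summit then lay within 5 kb for 11 of the 70 clustered genes (15.7%, 9.01 to 26%) and 12 of the 24 single genes, beside 48.2% of all genes. The median number of annotated transcripts was 2 for clustered, 3 for single and 4 for all genes. The groups thus had unequal numbers of starts at which a summit could be found. In the clusters of 3 or more genes the count was 6 of 58, the 6 being Cyp2b10, Cyp2b19, Cyp2t4, Cyp4f16, Cyp4f37 and Cyp4f39.

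The 5 kb limit fell among a few close values. Just inside it were Cyp26b1 at 3398 bp, Cyp46a1 at 4411 bp and Cyp1a2 at 4550 bp. Just outside were Cyp4f15 at 5019 bp, Cyp2t4 at 6280 bp and Cyp4f16 at 7586 bp, each of them in a large cluster.

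In families 1 to 3, 6 of 59 genes had a summit within 5 kb, 2 of 51 clustered and 4 of 8 single ones, beside 38.2% of all genes. Cyp2w1, an enzyme whose endogenous substrate is not settled, had a pair of summits in its introns. The stronger, 2815 bp into the gene, had a strength of 576.6 in the conservative list, and the overlapping peak had 331.1 in ranked pool E and 243.9 in ranked pool F. The weaker, at 1094 bp, had 201.3, 140.7 and 63.4 in the same lists. Scores were made for each list separately, so they rank peaks within a list and were not compared between lists.

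Cyp1b1, which oxidises oestrogens and polycyclic hydrocarbons, had a summit 701 bp upstream of its start, with a strength of 510.3 in the conservative list, 324.7 in pool E and 189.0 in pool F. It was stronger than 87.3% of the conservative peaks. Cyp2u1, a fatty acid hydroxylase, had an intronic summit of 426.5 at 3129 bp and a weak one of 58.5 at 148 bp. The weak one had no motif match and did not pass the threshold in pool F, at an irreproducible discovery rate (IDR, the expected share of peaks that do not repeat between inputs) of 0.599. Peaks passed at an IDR of 0.05 or less.

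Cyp2r1, a vitamin D 25-hydroxylase, had a summit of 73.7 at 336 bp, which passed in pool E and not in pool F. Cyp1a1 and Cyp1a2, the dioxin-inducible pair of divergent genes on chromosome 9, shared 1 summit of 167.6. It lay 325 bp into Cyp1a1 and 4550 bp upstream of Cyp1a2, and it passed in both pools. Cyp2a12, the first family 1 to 3 gene by symbol without a summit, had its nearest at 99290 bp.

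Beside 38.2% of all genes, 1 of the 17 genes of family 4 had a summit within 5 kb. This was Cyp4f13, with a summit of 413.2 at 4243 bp upstream, in an exon of the pseudogene Cyp4f41-ps, and a weaker one of 90.02 in an intron. Cyp4a10, a hydroxylase of medium- and long-chain fatty acids, was the first without one, and its nearest summit lay 42018 bp away.

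Beside 38.2% of all genes, a summit lay within 5 kb of 2 of the 7 genes grouped by family number under sterols and bile acids. One of the others, Cyp27b1, acts on vitamin D, which leaves 6 genes of sterol and bile acid metabolism. Cyp46a1, the brain cholesterol 24-hydroxylase, had one of 376.7 at 4411 bp in an intron. Cyp27a1, the mitochondrial sterol 27-hydroxylase, had summits of 195.1 at 354 bp upstream and 129.3 at 1407 bp upstream. All 3 of these summits passed in both pools. A stronger candidate of 628.0 within 5 kb of the Cyp46a1 start missed the IDR threshold in the ranked conservative list. The summit nearest to that start lay at 381 bp in the pool E list and at 1192 bp in the pool F list. Cyp27b1, the vitamin D 1-alpha-hydroxylase, was the first of the group by symbol without a conservative summit within 5 kb. Its nearest, of 599.6, lay at 10129 bp. Cyp7a1, the rate-limiting enzyme of bile acid synthesis, had its nearest at 17563 bp.

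Among the steroid hormone genes, 3 of 6 had a summit within 5 kb, beside 38.2% of all genes. Cyp17a1, the 17-alpha-hydroxylase, had one of 460.6 at 2310 bp, Cyp21a1, the 21-hydroxylase, one of 189.1 at 850 bp upstream, and Cyp11a1, the side-chain cleavage enzyme, one of 67.2 at 3376 bp. The first pair passed in both pools, and the Cyp11a1 peak passed in pool E and not in pool F. Cyp11b1, the 11-beta-hydroxylase, was the first without one, at 31478 bp. Cyp19a1, the aromatase, was 55591 bp from its nearest summit.

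All 3 retinoic acid hydroxylases of family 26 had a summit within 5 kb, beside 38.2% of all genes. So did Cyp24a1, the vitamin D 24-hydroxylase (145.9, at 306 bp upstream). Of the 3 vitamin D hydroxylases named, Cyp24a1 and Cyp2r1 thus had a conservative summit. Cyp27b1 had none in that list, but the combined list had a summit within 5 kb of its start. Cyp26b1 had the strongest conservative summit within 5 kb of a Cyp start, 608.9 at 3398 bp in an intron. It was stronger than 98.9% of the conservative peaks. The overlapping peak had a strength of 341.6 and an IDR of 0.158 in pool E, above the threshold, and 269.4 and 0.000664 in pool F. The strong Cyp2w1 peak likewise had an IDR of 0.129 in pool E and 0.00115 in pool F. Cyp26a1 had the weakest summit, 45.4 at 109 bp, with an IDR of 0.122 in pool E and no overlapping peak in the ranked pool F list. Cyp26c1 had 93.4 at 1593 bp in its coding sequence, which passed in pool E and not in pool F. Cyp20a1, an enzyme of unknown substrate in a family of its own, had its nearest conservative summit at 61722 bp.

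**Figure D3:**
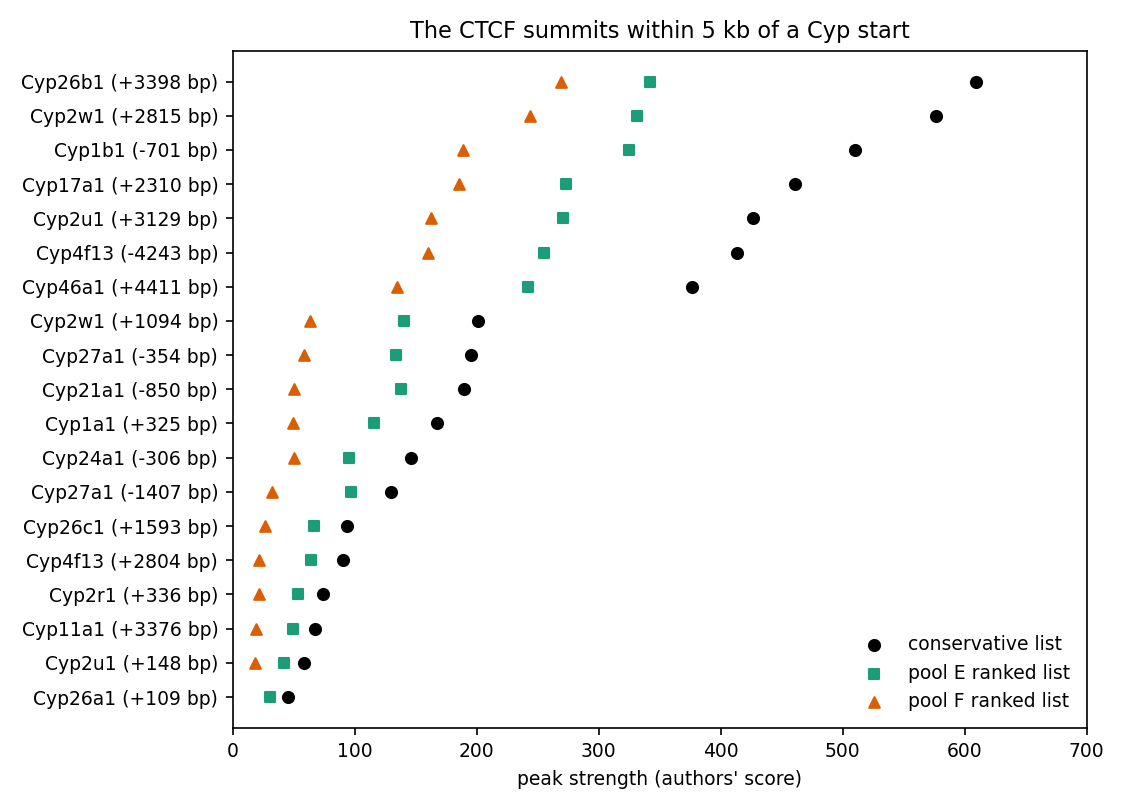
Strength (the authors' score) of the 19 CTCF summits within 5 kb of a Cyp start in the conservative list and of the overlapping peak in the ranked pool E and pool F lists; labels give the gene and the distance from its start in the direction of transcription. Cyp26b1 leads in the conservative list with 608.9, and Cyp26a1 is last with 45.4 and has no pool F point.

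Peaks that were candidates in the ranked conservative list but missed the IDR threshold lay within 5 kb of 6 of the 65 clustered genes without a summit (Cyp4f39, Cyp4f17, Cyp2j7, Cyp2j9, Cyp2s1 and Cyp2a22). They lay near 3 of the 13 such single genes (Cyp20a1, Cyp27b1 and Cyp39a1). Among all autosomal coding genes without a summit within 5 kb, 43.1% had such a candidate. No candidate lay near 59 of the 65 clustered and 10 of the 13 single genes.

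The 19 summits at Cyp starts lay in promoters (8, within 1000 bp of a start), introns (8), exons (2) and intergenic sequence (1). No shares of other summits at such places are given here, so these counts are a description. A motif match with at most 2 mismatches had its centre within 50 bp of 16 of the 19 summits (84.2%, 62.4 to 94.5%), against 64.0% of 9102 summits within 5 kb of other coding starts and 77.6% of all autosomal summits. Both of these shares lie within the interval of the Cyp summits. The median strength of the 19 summits was 189.1, against 233.2 for summits at other starts. The 3 without a match were the weak Cyp2u1 summit, the Cyp27a1 summit nearer to the start, and the Cyp26c1 summit.

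Inside the clusters, CTCF summits were sparse compared with the sequence just outside. From the first to the last gene body, the 14 clusters covered 4378 kb and held 28 summits, or 0.640 per 100 kb (exact Poisson 95% interval 0.425 to 0.924). The 100 kb beyond each edge held 85 summits in 2800 kb, or 3.04 per 100 kb (2.42 to 3.75). The autosomes held 1.71 per 100 kb. The density was lower inside than in the flanks in 10 of 14 clusters. It was higher inside in Cyp4f39 to Cyp4f15, Cyp4f14 to Cyp4f13 and Cyp26c1 to Cyp26a1, and both values were 0 in Cyp3a57 to Cyp3a16. The pooled difference, inside minus flanks, was -2.40 per 100 kb, and it was -1.04 with starts joined at 100 kb and -1.31 with the 21082 strongest peaks alone.

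**Figure D4:**
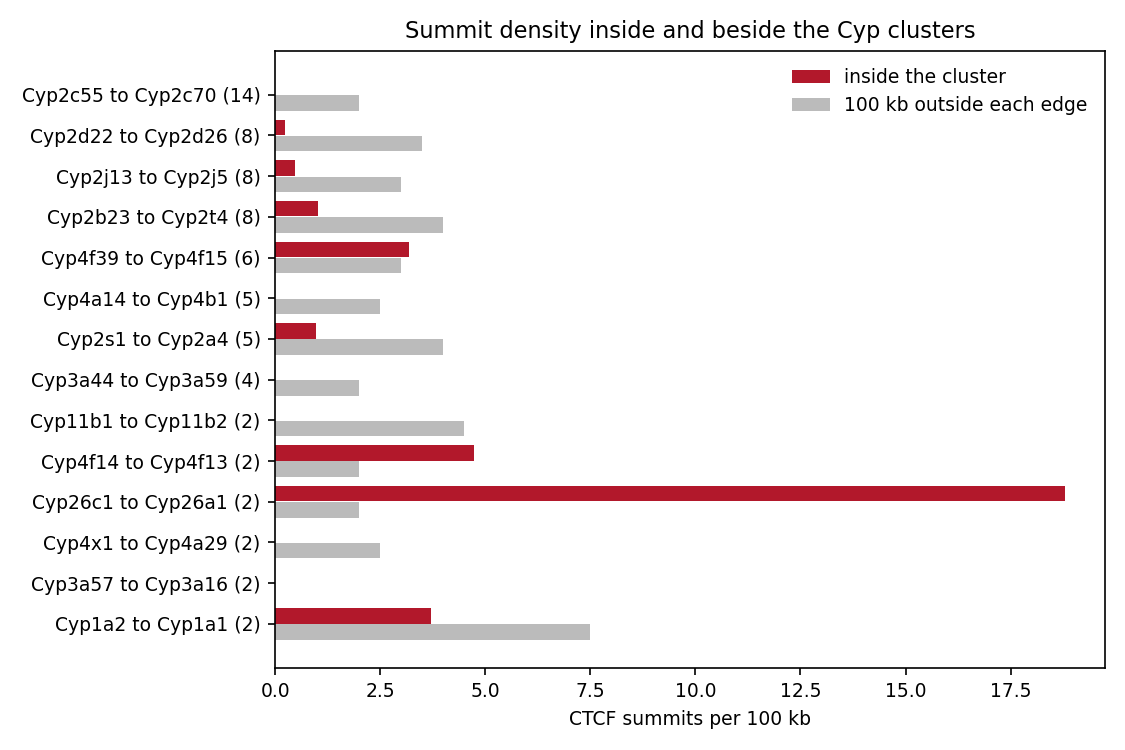
CTCF summits per 100 kb of the conservative list inside each Cyp cluster (red) and in the 100 kb outside each edge (grey), with the number of genes in brackets. The red bar is shorter in 7 of the 8 clusters of 3 or more genes; the longest red bar, Cyp26c1 to Cyp26a1, rests on 3 summits in 16.0 kb.

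Sequences that match the motif were less dense inside the clusters than in the flanks, and their density inside was near that over the autosomes. These match densities carry no interval. Matches with at most 1 mismatch numbered 126 inside (2.88 per 100 kb), 109 in the flanks (3.89 per 100 kb) and 2.55 per 100 kb over the autosomes. A summit lay at 15 of the 126 inside (11.9%, 7.35 to 18.7%), at 37 of the 109 in the flanks (33.9%, 25.7 to 43.2%) and at 30.6% over the autosomes. Repeats masked in the reference made up 50.2% of the sequence inside, 39% of the flanks and 33.5% of the autosomes. Sequence that occurs more than once within a cluster, counted as repeated stretches of 50 bases, reached 19.5% in the Cyp2c cluster and 16.6% in Cyp2s1 to Cyp2a4. How the authors treated reads that match several places was not given in the sources used here, and the part of repeated sequence in these counts was not tested.

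The Cyp2c cluster on chromosome 19 was the extreme. Its 14 genes, which in the liver oxidise drugs and arachidonic acid, span 1180 kb from Cyp2c55 to Cyp2c70 (chr19:39007019-40187333). It held 0 conservative summits, which allows up to 0.254 per 100 kb, 1 pool E summit, 0 pool F summits and 1 combined summit. It held 7 candidate peaks that missed the threshold. None of its 32 motif matches had a summit, which allows up to 9.38% of them. Both limits cover counting error only, and the sites of one cluster are not independent. The 2 summits that bordered it were 1243 kb apart, and 152 of the 40981 gaps between neighbouring autosomal summits (0.371%) were at least as long, beside a median gap of 21.1 kb.

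Strong peaks stood at both borders of the Cyp2c cluster. The low border lay 24851 bp outside Cyp2c55 in an intron of the pseudogene Cyp2c52-ps, with a strength of 539.1 in the conservative list, 326.2 in pool E and 216.7 in pool F. The high border lay 38287 bp outside Cyp2c70 in an intron of Pdlim1, with 539.5, 320.9 and 223.3. Both motifs had no mismatch and pointed toward the genes. They are shown because they enclose the longest stretch without a conservative summit among the Cyp clusters.
Cyp2c low border, chr19:38982156-38982185, plus strand: acagccatCCACTAGAGGGCGGgctttgac
Cyp2c high border, chr19:40225607-40225636, minus strand: acccacagCCAGCAGGTGGCAGtgtaggct

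Other long stretches without a conservative summit held several Cyp genes. One of 913.3 kb on chromosome 5 held the 6 starts of both Cyp3a clusters, and those of Cyp3a41a and Cyp3a41b outside the naming form, whose products oxidise many drugs and steroids. One of 849.8 kb on chromosome 7 held 5 starts of the Cyp2a and Cyp2b genes, and one of 387.7 kb on chromosome 15 held 5 starts of the Cyp2d genes. At least as long were 0.593, 0.671 and 1.98% of the autosomal gaps in that order. The other lists did not leave all of these empty. Inside Cyp3a57 to Cyp3a16 lay 1 pool E, 0 pool F and 0 combined summits. Inside the Cyp2d cluster lay 2 pool E, 1 pool F and 2 combined summits, against 1 conservative summit. The Cyp4a14 to Cyp4b1 cluster held 0 summits inside as well, and its 5 starts lay in a gap of 233.8 kb.

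**Figure D5:**
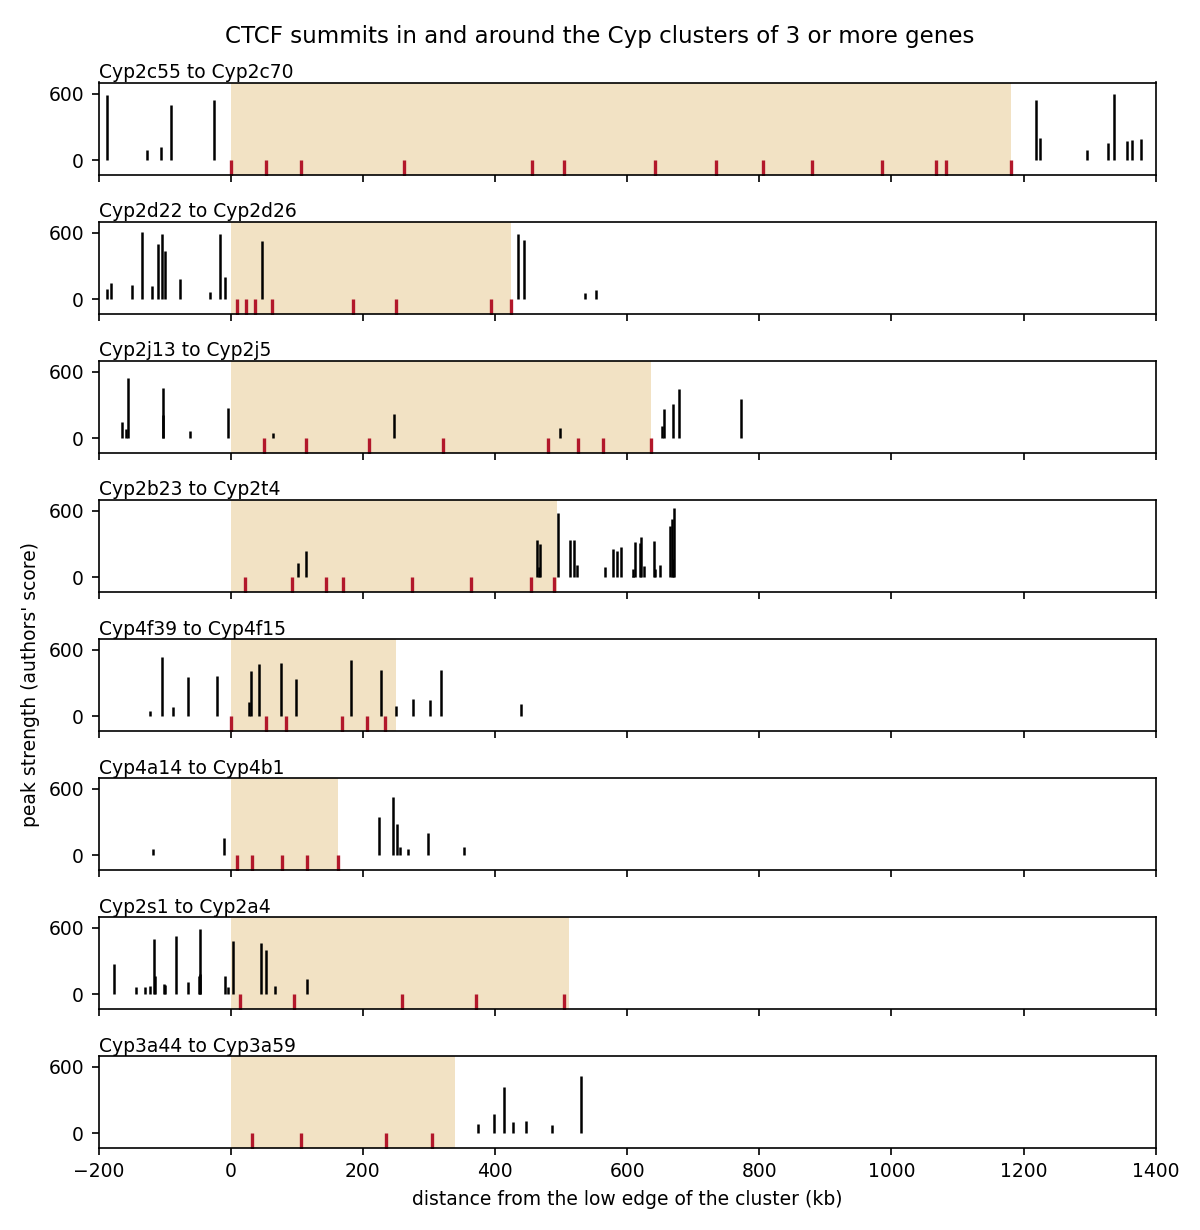
Conservative CTCF summits (black lines, height is the authors' strength score) in and within 200 kb of the 8 clusters of 3 or more Cyp genes, by distance from the low edge of the cluster (kb). Shading spans the first to the last gene body and red ticks are gene starts; the Cyp2c panel has no line inside its 1180 kb, and the Cyp4f39 to Cyp4f15 panel has 8 inside.

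The shares of cluster edges with a summit on the outside were near those of gene edges in general. Of the 28 edges, 14 had one within 20 kb on the outside, 21 within 50 kb and 22 within 100 kb, beside 48.2, 70.3 and 82.1% of the edges of all genes in that order. The median distance was 18.8 kb (0.463 to 747.8 kb), against 21.5 kb for the edges of all genes. The closest was 463 bp beyond the end of Cyp4f14. The farthest was 747753 bp from Cyp2b23, and that summit lies in Cyp2b10 of the neighbouring cluster. The edges shared summits, leaving 26 distinct ones with a median strength of 220.7, and 23 of these had a motif. The nearest motif-bearing summit pointed into the cluster at 17 of the 28 edges, beside 52% of the edges of all genes, so the count was near its background. The 17 rest on 15 distinct summits, since the 2 Cyp3a clusters fill 4 of them with the same pair.

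The Cyp4f genes, which hydroxylate leukotrienes and long-chain fatty acids, formed the exception among the large clusters. Cyp4f39 to Cyp4f15 held 8 summits in 250.6 kb (3.19 per 100 kb), with 9 in pool E and 7 in pool F. Of these 8 summits, 4 lay in 3′ UTRs, those of Cyp4f15, Cyp4f16, Cyp4f17 and Cyp4f37, and Cyp4f14 of the neighbouring pair had a further one in its 3′ UTR. This was looked at after the positions inside the clusters had been seen, so it is a description. Within 1 kb of the gene end, 4 of 9 Cyp4f genes and 1 of the 85 other Cyp genes (Cyp2f2) had a summit, beside 7.35% of all genes. The counts in pool E were 5 of 9 and 3 of 85, beside 8.41% of all genes. In pool F they were 3 of 9 and 1 of 85, beside 6.31% of all genes.

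The strengths at these 3′ UTR summits differed widely. Cyp4f37 had 506.1 in the conservative list, 309.7 in pool E and 196.5 in pool F. Cyp4f17 had 476.9, 299.3 and 178.7, Cyp4f16 had 333.6, 232.1 and 95.7, and Cyp4f14 had 278.0, 169.9 and 106.8. Cyp4f15 had only 90.2, 68.3 and 18.1, and its pool F peak missed the threshold at an IDR of 0.599. The sites are shown together with the exon of Cyp4f41-ps, because their motifs are alike and their strengths are not.
Cyp4f37, chr17:32635229-32635258, plus strand: acagaacgCCAGCAGGGGGCGCtagagggc
Cyp4f14, chr17:32905387-32905416, minus strand: accgagagCCAGCAGGGGGCGCtgtgaaat
Cyp4f41-ps, chr17:32951628-32951657, minus strand: accaagtaCCAGCAGGGGGCGCggtggaac
Cyp4f15, chr17:32703028-32703057, plus strand: gcagaataCCAGTAGGGGGCGCtggaggac
Cyp4f17, chr17:32528954-32528983, plus strand: acccagagCCATCAGAGGGCGCtgcaggac
Cyp4f16, chr17:32551293-32551322, plus strand: acccagagCCATCAGAGGGCGCtgcaggat

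The 14-base cores of Cyp4f37, Cyp4f14 and Cyp4f41-ps were identical, and so were those of Cyp4f17 and Cyp4f16. Over 38 bases around the motif, Cyp4f17 and Cyp4f16 matched at 37, and their longest shared exact stretch was 42 bases. A weak summit thus stood at Cyp4f15 on a motif with no mismatch, and stronger ones stood at Cyp4f17 and Cyp4f16 on a motif with 1 mismatch.

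Duplicated sites occurred in other clusters too. The summits 9954 bp beyond Cyp4a14 (152.9) and 113678 bp beyond Cyp4a29 (61.5) have the same 38 bases and share an exact stretch of 146 bases, 108.0 kb apart. Both lie between the 2 clusters of the naming form, among the coding genes Cyp4a12a, Cyp4a12b and Cyp4a30b, whose symbols end in a letter. Intron summits in Cyp2b10 (140.3) and Cyp2b19 (131.7) matched at 35 of 38 bases, and their shared exact stretch was shorter, at 34 bases. They are shown because a read that lies wholly within a shared stretch cannot be assigned to one copy.
Between the starts of Cyp4a30b and Cyp4a14, chr4:115476213-115476242, plus strand: ctgaccagCCACCAGGGGGCACtgacatat
Between the starts of Cyp4a12a and Cyp4a12b, chr4:115368246-115368275, plus strand: ctgaccagCCACCAGGGGGCACtgacatat
Cyp2b10 intron, chr7:25917451-25917480, plus strand: tttcccagACACTAGAGGGCAGgcccaccc
Cyp2b19 intron, chr7:26767267-26767296, plus strand: tttcccagACACTAGAGGGCAGgcccacct

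A single core recurred at 5 of the 44 distinct summits at Cyp starts and cluster edges. It is the core CCAGAAGAGGGCAT of the upstream Cyp27a1 site shown above, and it also lay under edge summits of Cyp4f14, Cyp4f39, Cyp4f15 and Cyp2s1. It was the most frequent core of all, under 1710 of 31822 autosomal summits with a motif (5.37%). The 44 summits include some without a motif, so the 2 shares have unlike bases. Of those 1710 summits, 93.2% were in masked repeats, against 22.2% of all summits with a motif, and their median strength was 115.6.

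Partners and regulators of P450 enzymes were read in the same way. Of 35 such genes, 10 had a summit within 5 kb (28.6%, 16.3 to 45.1%), beside 38.2% of all genes. The strongest were at Cebpb (588.0) and Cebpa (535.5), transcription factors of liver and fat cells, and at Ahr (433.8), the dioxin receptor that induces Cyp1a1. Por, the electron donor of microsomal P450 enzymes, was the first in the list without one, at 18901 bp.

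Other families of drug metabolism were not alike. Glutathione transferase genes (Gst) had a summit within 5 kb in 10 of 19 clustered and 0 of 3 single genes. The interval of the clustered Gst share, 31.7 to 72.7%, included the 38.2% of all genes. Sulfotransferase genes (Sult) had one in 0 of 15 clustered genes, which allows up to 20%, and in 2 of 6 single genes. Carboxylesterase genes (Ces) had one in 2 of 19 and UDP-glucuronosyltransferase genes (Ugt) in 0 of 21, all of them clustered, and the count of 0 allows up to 14.3%. Over these 4 families the counts were 12 of 74 clustered and 2 of 9 single genes, beside 38.2% of all genes.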

How the data were processed

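CTCF ChIP-seq peak lists from pool E and pool F were analysed on mm10 (GRCm38), with no alleles of the hybrid B6CASTF1/J genome told apart. Per the notes deposited with the samples, technical replicates were merged into 1 alignment per pool with 1 control alignment; aligner, peak caller and versions are not given in the sources used here. Peak strength is a score the authors deposited, of unstated scale. IDR values were taken back from the −log10 values deposited in the ranked lists. Read depth is unknown, and no value has a spread between animals.

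Gene starts and gene parts came from GENCODE M21. Starts within 200 kb were joined into clusters by single linkage. The core CTCF consensus (14 letters, both strands, at most 2 mismatches, centre within 50 bp of a summit) was searched in the RefSeq GRCm38 assembly. CpG-rich meant an observed to expected ratio over 0.6 and GC over 50% within 500 bp of the start. Zero counts carry a limit of 3 counts. It treats genes and sites as independent, which those of one cluster are not, so it may be too low. The functions were tested on simulated data. Python 3.11.15, numpy 2.4.6, pandas 2.3.3, scipy 1.17.1, pysam 0.24.0 and matplotlib 3.10.9 were used.

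Named genes are those with a conservative summit within 5 kb, the 3 just inside and just outside that limit, the ends of each cluster, and per role group or list the strongest and the first without a summit. Others (Cyp2c67, Cyp7a1, Cyp7b1, Cyp19a1, the candidate-only genes, the Cyp4f and Cyp2b genes with a summit, Cyp2f2) were chosen after their values were seen. The members and lists were chosen with earlier results of these data known. Alternatives tried were the other lists, the 21082 strongest peaks, other windows, linkage distances, flanks and mismatch limits, any transcript start, the peak interval, and motif-bearing summits.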

Additional observations from a re-analysis of the deposited data

How the results depend on the processing

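Clustered genes had the lower share under every alternative but one: the difference from single genes was -38.7 percentage points and ran from -22.1 (1 kb window) to -48.5 (pool E). Among CpG-rich promoters, added after seeing the data, it was 42.9, because 1 clustered gene was left against 7 single ones. The share of Cyp genes with a summit was 7.45% with the 21082 strongest peaks alone, 8.51% within 1 kb and 43.6% within 20 kb, and 24.5% with any transcript start. The density inside minus flanks, -2.40 per 100 kb, was -1.31 with those strongest peaks and -1.04 with linkage at 100 kb. Edges with a summit within 50 kb, 75% of edges, were 53.6% with those strongest peaks, 52.5% and 90% with linkage at 100 and 500 kb, and 50% within 20 kb. With all coding Cyp symbols linking clusters, added after seeing the data, there were 24 edges (83.3%) and the density difference was -2.89. The motif share was 100% with those strongest peaks and 42.1% at 1 mismatch. Fewer peaks, another window or other clusters enter these by construction. No paired analysis was possible because technical replicates are merged in every list and each pool is 1 list; the pool E and pool F lists stand in for leaving out a replicate.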

Other observations

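Cyp symbols outside the naming form were not counted above. The share of all autosomal coding genes with a conservative summit within 5 kb was 38.2%. Of 6 further protein-coding genes (Cyp51, Cyp3a41a, Cyp3a41b, Cyp4a12a, Cyp4a12b and Cyp4a30b), 1 had a conservative summit within 5 kb: Cyp51, the lanosterol demethylase of cholesterol synthesis, with 146.2 at 2756 bp. Of 30 Cyp pseudogenes, 3 had one: Cyp2j15-ps (217.5 at 117 bp), Cyp4f41-ps (169.4 at 340 bp) and Cyp21a2-ps (132.4 at 1002 bp).

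Some Cyp starts had a summit in a single pool's list and none in the conservative list. The pool E list had summits 16 bp from the start of Cyp20a1, 1704 bp from Cyp27b1 and 2915 bp from Cyp2ab1, and the pool F list had none within 5 kb of these genes. The combined list had a summit within 5 kb of Cyp27b1, and none that close to Cyp20a1 or Cyp2ab1.

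Of the 28 summits inside the clusters, 3 lay in Cyp coding sequence, 2 in Cyp26c1 (93.4 and 69.9) and 1 in Cyp2j6 (95.6). No share of all autosomal summits in coding sequence is given here, so this count is a description. The Cyp2f2 gene, active in lung and liver, held 3 intronic summits of 336.0, 301.5 and 95.7, all of which passed in both pools.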
